A study of Danio rerio with 8 samples.

Results

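The measurement described here is the genotype effect that depends on the cell population: the change from wild type to 142ab-/- in myelomonocytes minus the change from wild type to 142ab-/- in whole kidney marrow. It was computed for each gene from log2 array values and is called the difference of differences below. All 8 of the 8 arrays entered it, and it was tested for 13774 of the 19260 gene symbols on the array, those with a probe set paired with exactly 1 symbol and a mean level at or above 5.52. A positive value means that the change was more positive in myelomonocytes, a negative value that it was more negative there, and a value of 1 is a 2-fold discrepancy between the populations. Zebrafish were 60 days old and either wild type or 142ab-/-, a double knockout of miR-142-3p. Myelomonocytes, the granulocyte and monocyte lineage cells, or whole kidney marrow without erythrocytes (abbreviated WKMs in the sample labels) were sorted from dissected kidney. Each of the 4 groups held 2 biological replicates, each pooled from 4 kidneys, so single fish cannot be resolved. The marrow samples still contain myelomonocytes, so the populations overlap and a change in myelomonocytes is also part of the marrow value. The labels name no cell type to which the knockout is restricted, and both knockout groups carry it.

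MicroRNAs are short RNAs that guide a silencing complex to partly complementary sites in messenger RNAs and lower the stability or translation of those messengers. miR-142 is known as a microRNA of blood cells and is made in most white cell lineages. In adult zebrafish the kidney is the main blood-forming organ, where red cell precursors, myeloid cells, lymphocytes and thrombocytes develop between the kidney tubules.

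Arrays of the same group correlated at Pearson's r from 0.988 to 0.992 over the genes tested, and arrays of different groups from 0.907 to 0.974. The 8 array medians lay between 5.49 and 5.54. Of the probe sets paired with exactly 1 symbol, none was named for a mir142 gene. Probe sets with several symbols were not searched, and those without a symbol could not be. The knockout was therefore not checked through its target on these arrays. Marker lists, chosen with earlier results of these data known, were used to check the sorted populations. Genes were called at an adjusted p under 0.05 in limma's moderated test. In wild type, 12 of 18 neutrophil markers were higher and 0 lower in myelomonocytes than in marrow, whereas 12 of 14 B cell markers and 15 of 16 T and NK cell markers were lower there (of all 13774 genes, 2134 were called higher and 2766 lower, 35.6% in either direction). Monocyte and macrophage markers were divided, with 4 of 23 higher and 8 lower in myelomonocytes. Erythroid markers had 1 of 30 higher and 22 lower in wild-type myelomonocytes, with a median population difference of -0.83. Endothelial markers had 12 of 21 higher and 0 lower in wild-type myelomonocytes. Their median population difference in wild type was 0.72, against 0.37 for neutrophil markers, and the reason was not tested. Because these are bulk samples, fewer cells of a type and less RNA per cell cannot be told apart in any value below.

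The genotype change depended on the population for 38 genes, or 0.276% of the 13774 tested. It was more positive in myelomonocytes for 18 of them (0.131%) and more negative for 20 (0.145%). Their differences of differences ranged in size from 0.95 to 3.77 on the log2 scale, with a median size of 1.42, against a median size of 0.17 over all genes. For 37 of the 38 the discrepancy was at least 2-fold, and the exception was bcam at 0.95. These sizes follow in part from the choice of genes, since a call needs a value that is large against its error. At an unadjusted p under 0.05 stood 1924 genes, or 14.0%, of which 6.61% of all genes were positive and 7.35% negative. A further 67 genes had an adjusted p from 0.05 to 0.10. Of 260 genes with a discrepancy of 2-fold or more, 223 did not pass the test. The median standard error of the difference of differences was 0.17, compared with 0.12 for a genotype change within a single population. The larger error follows from the contrast, which holds all 4 group means, whereas a genotype change holds 2. The number of arrays, 2 per group, limits the precision of both, and p-values measure only the spread between these samples.

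The 38 genes were read against the genotype change in each population, of which 12.4% of all genes were called in myelomonocytes and 9.28% in marrow. For 17 of the 38 the genotype change was called in marrow and not in myelomonocytes, for 9 in myelomonocytes and not in marrow, and for 12 in both. Among those 12, the sign was the same in both populations for 8 and opposite for 4. These counts follow in part from the choice of genes, since the difference of differences is made of these changes. The change was larger in marrow for 20 genes and in myelomonocytes for 18. By a description chosen after the values were seen, a group stood alone when its gap to the next group exceeded the range of the other groups. The 142ab-/- marrow stood alone as high for 12 genes, wild-type marrow as high for 6 and 142ab-/- myelomonocytes as low for 5. These counts also follow in part from the choice of genes. The shares over all genes are not given here, so the counts are a description only. Of the 38 genes, 33 have more than a clone or placeholder name, and the other 5 (4 positive and 1 negative) are not described singly.

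Most of these calls were lost when any 1 array was left out, while the values stayed close to the reported ones. Without either wild-type myelomonocyte array, or without replicate 1 of wild-type marrow, 1 gene was called, and without replicate 2 of wild-type marrow 2 were called. Leaving out either array of the 142ab-/- myelomonocytes or of the 142ab-/- marrow also lost most of the 38 calls. Some of the genes called without an array of the 142ab-/- myelomonocytes, or without replicate 1 of the 142ab-/- marrow, were not among the 38. The gene hpdb was called in each of these 8 repeats, while each of the other 32 named genes lost its call in at least 4 of them. Over these repeats the differences of differences of the 33 named genes lay between 85.5% and 115% of the reported values, and no named gene changed sign. That closeness follows in part from the choice of genes, since a call needs a value that is large against the replicate spread. The repeats also share most of their arrays, and all of them kept the gene filter set on the mean over the 8 arrays. The gene hpdb passed that filter through wild-type marrow alone. Its mean over the 8 arrays was 5.53, only just above the filter level of 5.52. Its calls without a wild-type marrow array therefore rest on the filter kept from all 8 arrays. Whether hpdb would pass a filter set anew in each repeat was not tested.

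**Figure D1:**
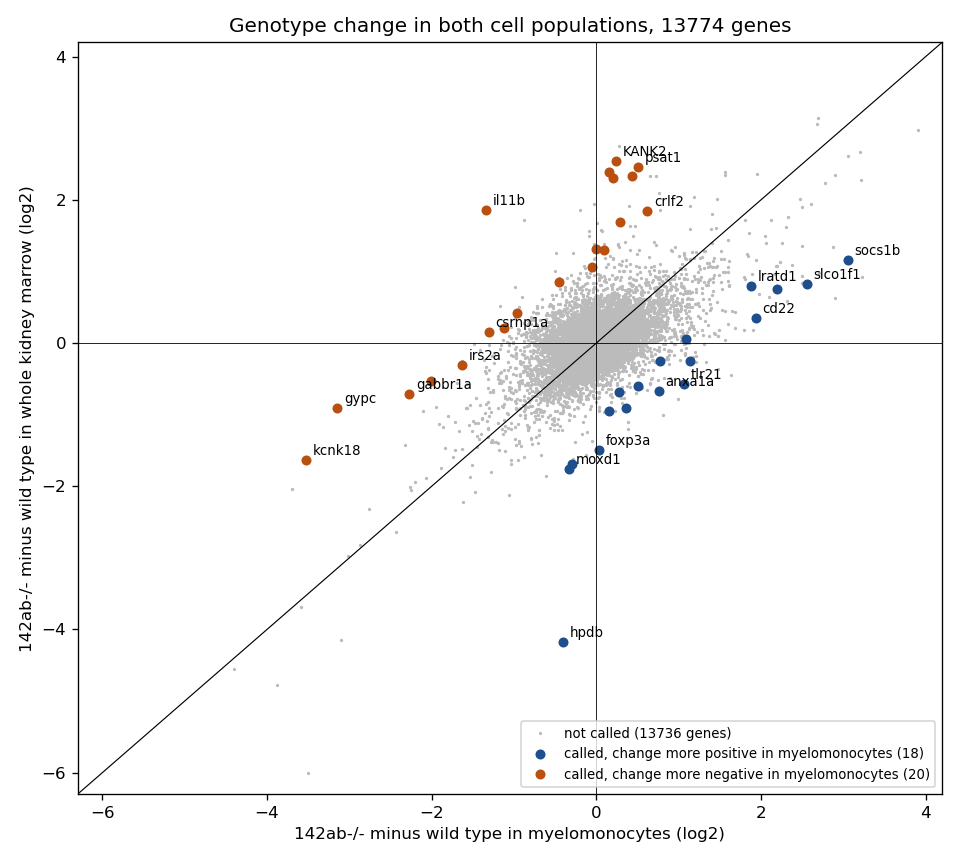
Genotype change (142ab-/- minus wild type, log2) in myelomonocytes on the horizontal axis and in whole kidney marrow on the vertical axis, 1 point per gene for 13774 genes. The 38 genes called for the difference of differences are coloured by direction, and the diagonal marks equal change in both populations. The gene hpdb lies far below the diagonal with changes of -0.40 in myelomonocytes and -4.17 in marrow, and il11b lies above it on opposite sides of 0.

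The most extreme value belonged to hpdb, which encodes a 4-hydroxyphenylpyruvate dioxygenase of tyrosine breakdown. Its log2 levels were 8.68 and 8.36 in wild-type and 4.40 and 4.29 in 142ab-/- marrow, and 4.73 and 4.92 in wild-type and 4.29 and 4.56 in 142ab-/- myelomonocytes. Wild-type marrow was high on both arrays and the other 3 groups were all below the filter level of 5.52. The gene fell by 4.17 ± 0.15 (SE) in marrow, an 18.0-fold drop (adjusted p = 1.12e-05), and its change in myelomonocytes was -0.40 ± 0.15. The difference of differences was 3.77 ± 0.21, or 13.7-fold (adjusted p = 0.00115). Its mean over the 8 arrays, 5.53, passed the filter through wild-type marrow alone, so values elsewhere may be background brightness. The marrow fall is then understated, and the change in myelomonocytes, and with it the difference of differences, is not measured exactly.

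The gene foxp3a, an orthologue of the transcription factor that defines regulatory T cells in mammals, had the same shape at lower amplitude. It stood at 7.14 and 6.93 in wild-type and 5.57 and 5.50 in 142ab-/- marrow, and 5.82 and 5.61 in wild-type and 5.64 and 5.85 in 142ab-/- myelomonocytes. Only the wild-type marrow arrays were high. The myelomonocyte groups overlapped, and 142ab-/- marrow lay just below them. Group means were 5.71 in wild-type myelomonocytes, 5.75 in 142ab-/- myelomonocytes and 5.54 in 142ab-/- marrow. They lay close to the filter level and may be near background. In marrow foxp3a fell by 1.50 ± 0.13 (adjusted p = 0.00081) and its difference of differences was 1.53 ± 0.18 (adjusted p = 0.0268). The gene parp9 encodes an ADP-ribosyltransferase family protein linked to interferon responses in mammals. Its levels were 6.82 and 6.91 in wild-type and 5.22 and 5.13 in 142ab-/- marrow, and 6.01 and 5.94 in wild-type and 5.69 and 5.66 in 142ab-/- myelomonocytes. Wild-type marrow was highest and 142ab-/- marrow lowest, with the myelomonocytes between them and no overlap. The 142ab-/- marrow mean of 5.18 lay below the filter level, so it may be background brightness. The difference of differences of parp9 was 1.39 ± 0.13 (adjusted p = 0.0134).

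The gene moxd1, which encodes a copper-dependent monooxygenase related to dopamine beta-hydroxylase, measured 9.97 and 10.05 in wild-type and 8.42 and 8.09 in 142ab-/- marrow, and 8.79 and 8.96 in wild-type and 8.66 and 8.43 in 142ab-/- myelomonocytes. Wild-type marrow was again the highest group, and the other 3 groups lay within about 1 log2 unit of each other. Its difference of differences was 1.42 ± 0.20 (adjusted p = 0.0421), with a marrow change of -1.76 ± 0.14. For bcam, an adhesion molecule that binds laminin in mammals, the levels were 8.11 and 8.27 in wild-type and 7.54 and 7.49 in 142ab-/- marrow, and 7.18 and 7.24 in wild-type and 7.47 and 7.50 in 142ab-/- myelomonocytes. Its marrow change was -0.68 ± 0.10 and its difference of differences 0.95 ± 0.14 (adjusted p = 0.0473), the smallest in size among the calls. It was called in 4 of the 9 planned settings besides leaving out arrays. Mean levels of the T and NK cell markers, to which foxp3a belongs, were 8.67 and 8.73 in wild-type and 8.60 and 8.48 in 142ab-/- marrow, slightly lower in the latter, and those of the B cell markers were 9.98 and 9.96 and 9.84 and 9.54. Their part in the values of foxp3a was not tested.

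**Figure D2:**
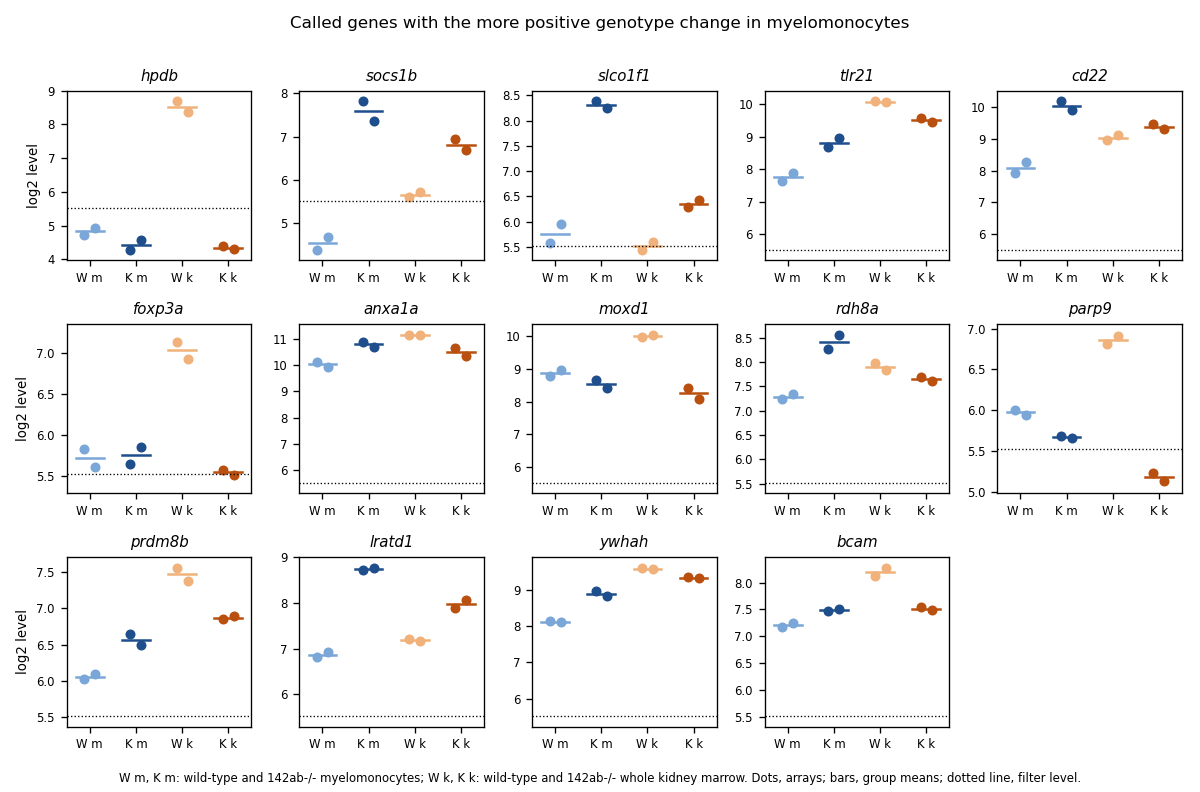
Log2 level on each array of the 14 named genes with the more positive genotype change in myelomonocytes, with the groups on the horizontal axis (W, wild type; K, 142ab-/-; m, myelomonocytes; k, whole kidney marrow). Dots are arrays, bars are group means of 2 arrays and the dotted line is the filter level of 5.52. Wild-type marrow stands apart for hpdb and foxp3a, and 142ab-/- myelomonocytes stand apart for slco1f1.

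Rises that were larger in myelomonocytes were led by socs1b, an inhibitor of cytokine signalling through the JAK-STAT pathway. It measured 4.39 and 4.67 in wild-type and 7.82 and 7.36 in 142ab-/- myelomonocytes, and 5.61 and 5.71 in wild-type and 6.94 and 6.69 in 142ab-/- marrow. Both 142ab-/- groups were above both wild-type groups, and wild-type myelomonocytes were below the filter level. It rose by 3.06 ± 0.17 in myelomonocytes (adjusted p = 0.000106) and by 1.16 ± 0.17 in marrow (adjusted p = 0.00760), and the difference of differences was 1.90 ± 0.24 (adjusted p = 0.0353). A dimmer probe set of socs1b, with a mean level of 5.60, changed by -0.07 in myelomonocytes and by 0.04 in marrow. It thus showed neither rise, and its difference of differences was -0.11. With the probe sets of socs1b averaged the value was 0.89 and the call was kept (adjusted p = 0.0403). Its paralogue socs1a, chosen here for its name after the values were seen, rose in both populations by 0.65 and 0.96, and its difference of differences of -0.31 ± 0.14 did not pass the test (adjusted p = 0.358).

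The organic anion transporter gene slco1f1 measured 5.57 and 5.95 in wild-type and 8.38 and 8.25 in 142ab-/- myelomonocytes, and 5.45 and 5.60 in wild-type and 6.28 and 6.43 in 142ab-/- marrow. Its wild-type mean was 5.52 in marrow, at the filter level, and 5.76 in myelomonocytes, close to it. Both genotype changes are thus set against groups that may be near background. The 142ab-/- myelomonocytes were the highest group by over 1 log2 unit. It rose by 2.56 ± 0.14 there and by 0.83 ± 0.14 in marrow (adjusted p = 0.000104 and 0.0128), with a difference of differences of 1.73 ± 0.20 (adjusted p = 0.0268). The gene cd22, whose mammalian product is a sialic acid-binding inhibitory receptor of B cells, measured 7.94 and 8.26 in wild-type and 10.18 and 9.89 in 142ab-/- myelomonocytes, and 8.95 and 9.11 in wild-type and 9.47 and 9.30 in 142ab-/- marrow. Its 142ab-/- myelomonocytes were the highest group and its wild-type myelomonocytes the lowest. It rose by 1.94 ± 0.15 in myelomonocytes (adjusted p = 0.000394), its marrow change was 0.35 ± 0.15 (adjusted p = 0.190), and the difference of differences was 1.59 ± 0.21 (adjusted p = 0.0374). Over the B cell list as a whole, mean levels in myelomonocytes were 7.69 and 7.76 in wild type and 7.84 and 7.69 in 142ab-/-, ranges that overlap.

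A further 3 named genes rose mainly in myelomonocytes. The gene lratd1, named for its lecithin retinol acyltransferase domain, rose by 1.88 ± 0.10 in myelomonocytes and by 0.79 ± 0.10 in marrow (adjusted p = 0.000102 and 0.00466), with a difference of differences of 1.09 ± 0.15 (adjusted p = 0.0374). The retinol dehydrogenase gene rdh8a measured 7.24 and 7.34 in wild-type and 8.28 and 8.57 in 142ab-/- myelomonocytes, and 7.98 and 7.83 in wild-type and 7.70 and 7.60 in 142ab-/- marrow. Its myelomonocyte rise was 1.14 ± 0.12 (adjusted p = 0.00166), its marrow change -0.26 ± 0.12 (adjusted p = 0.243), and its difference of differences 1.39 ± 0.17 (adjusted p = 0.0339). The 142ab-/- myelomonocytes were thus the highest group for rdh8a. For ywhah, a 14-3-3 adaptor protein gene that was lower in myelomonocytes than in marrow in both genotypes, the corresponding values were 0.77 ± 0.09 (adjusted p = 0.00266), -0.25 ± 0.09 (adjusted p = 0.139) and 1.02 ± 0.13 (adjusted p = 0.0359).

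Among the 38 genes, opposite genotype changes, each called in its own population, were found for 4. Over all 13774 genes tested, 633 were called in both genotype comparisons, and 9 of those had opposite signs. The cytokine gene il11b, of the interleukin-6 family, measured 6.59 and 5.80 in wild-type and 4.77 and 4.95 in 142ab-/- myelomonocytes, and 5.98 and 6.68 in wild-type and 8.32 and 8.07 in 142ab-/- marrow. Its 142ab-/- myelomonocytes were the lowest group and below the filter level, its 142ab-/- marrow was the highest, and the wild-type groups overlapped. It fell by 1.34 ± 0.29 in myelomonocytes (adjusted p = 0.0226) and rose by 1.86 ± 0.29 in marrow (3.64-fold, adjusted p = 0.00846). The difference of differences was -3.20 ± 0.41 (adjusted p = 0.0349), the most negative of all calls. The replicate spread of il11b was wide, with an SD of 0.56 over the wild-type myelomonocyte arrays (n = 2).

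The other 3 of the 4 genes with opposite changes among the 38 moved the other way, rising in myelomonocytes and falling in marrow. The gene tlr21, a Toll-like receptor known in fish and birds that senses unmethylated CpG DNA, measured 7.64 and 7.87 in wild-type and 8.69 and 8.95 in 142ab-/- myelomonocytes, and 10.09 and 10.07 in wild-type and 9.57 and 9.44 in 142ab-/- marrow. It rose by 1.06 ± 0.13 in myelomonocytes (adjusted p = 0.00246) and fell by 0.57 ± 0.13 in marrow (adjusted p = 0.0301), so its deficit in myelomonocytes relative to marrow narrowed from -2.32 in wild type to -0.69 in 142ab-/-. The marrow arrays of tlr21 lay above its myelomonocyte arrays in both genotypes. The gene anxa1a encodes annexin A1, a calcium-dependent phospholipid-binding protein with anti-inflammatory roles in mammals. It measured 10.14 and 9.95 in wild-type and 10.89 and 10.71 in 142ab-/- myelomonocytes, and 11.17 and 11.17 in wild-type and 10.64 and 10.36 in 142ab-/- marrow. In wild type its marrow arrays were above its myelomonocyte arrays, and in 142ab-/- they were below them, as its population difference passed from -1.13 (adjusted p = 0.000592) to 0.30 (adjusted p = 0.0935). For prdm8b, a PR domain zinc finger gene, the myelomonocyte rise was 0.50 ± 0.11 (adjusted p = 0.0207) and the marrow change -0.59 ± 0.11 (adjusted p = 0.0145). The differences of differences were 1.64 ± 0.18 (adjusted p = 0.0268) for tlr21, 1.43 ± 0.18 (adjusted p = 0.0349) for anxa1a and 1.098 ± 0.15 (adjusted p = 0.0403) for prdm8b.

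Rises seen in marrow and not called, or much smaller, in myelomonocytes formed the largest class of named genes. Among secreted factors and receptors, the chemokine gene cxl34b.11 measured 5.23 and 5.47 in wild-type and 7.89 and 7.48 in 142ab-/- marrow, and 4.89 and 4.83 in wild-type and 5.36 and 5.22 in 142ab-/- myelomonocytes. Only 142ab-/- marrow was above the filter level, so the gene passed the filter through that group alone, and its changes are set against groups that may be at background. It rose by 2.34 ± 0.15 in marrow (adjusted p = 0.00023) and its difference of differences was -1.91 ± 0.21 (adjusted p = 0.0268). The gene crlf2, whose mammalian product is a receptor chain for thymic stromal lymphopoietin, measured 6.25 and 6.36 in wild-type and 8.17 and 8.13 in 142ab-/- marrow, and 4.84 and 4.95 in wild-type and 5.56 and 5.48 in 142ab-/- myelomonocytes. It rose in both populations, by 1.85 ± 0.10 in marrow and 0.62 ± 0.10 in myelomonocytes (adjusted p = 0.000133 and 0.00668), with a difference of differences of -1.23 ± 0.14 (adjusted p = 0.0268). Both myelomonocyte means of crlf2 lay below the filter level. For gdf11, a ligand of the TGF-beta superfamily, the marrow rise was 1.30 ± 0.12 (adjusted p = 0.00122) and the difference of differences -1.21 ± 0.17 (adjusted p = 0.0472), again with both myelomonocyte means below that level. It was called in 4 of the 8 planned settings, besides leaving out arrays, that tested it.

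Among regulators of transcription, the T-box gene eomesb measured 6.54 and 6.64 in wild-type and 8.33 and 8.24 in 142ab-/- marrow, and 5.98 and 6.05 in wild-type and 6.30 and 6.30 in 142ab-/- myelomonocytes. Its 142ab-/- marrow arrays were well above the other 6. It rose by 1.70 ± 0.09 in marrow (adjusted p = 0.000157), its myelomonocyte change was 0.29 ± 0.09 (adjusted p = 0.0902), and the difference of differences was -1.41 ± 0.13 (adjusted p = 0.0134). The paralogue eomesa, a T-box factor of cytotoxic lymphocytes in mammals and one of the T and NK cell markers, gave -0.22 ± 0.27 (adjusted p = 0.772). The Dachshund family gene dacha measured 6.45 and 6.53 in wild-type and 7.57 and 7.53 in 142ab-/- marrow, and 6.30 and 6.51 in wild-type and 6.32 and 6.39 in 142ab-/- myelomonocytes. It rose by 1.06 ± 0.10 in marrow (adjusted p = 0.00146) with a difference of differences of -1.11 ± 0.15 (adjusted p = 0.0374), while its relatives dachb, dachc and dachd gave 0.07, -0.14 and -0.05, none of which passed the test.

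Genes of metabolism and transport in the same class were psat1 and abcg4b. The gene psat1, which encodes phosphoserine aminotransferase of serine synthesis, measured 6.23 and 6.11 in wild-type and 8.35 and 8.90 in 142ab-/- marrow, and 5.62 and 5.67 in wild-type and 6.17 and 6.14 in 142ab-/- myelomonocytes. Its 142ab-/- marrow arrays were at least 2 log2 units above every other array. It rose by 2.45 ± 0.17 in marrow (adjusted p = 0.000302), its change in myelomonocytes was 0.51 ± 0.17 (adjusted p = 0.0862), and the difference of differences was -1.94 ± 0.23 (adjusted p = 0.0286). The ABC transporter gene abcg4b, whose mammalian relative exports sterols, measured 5.81 and 5.84 in wild-type and 7.11 and 7.18 in 142ab-/- marrow, and 5.53 and 5.47 in wild-type and 5.31 and 5.66 in 142ab-/- myelomonocytes. It rose by 1.31 ± 0.12 in marrow (adjusted p = 0.00125), and both myelomonocyte means lay below the filter level. Its difference of differences was -1.32 ± 0.18 (adjusted p = 0.0374).

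The actin- and adhesion-associated genes were KANK2 and cobll1b, and the apoptosis gene was bmf1. KANK2, an adaptor that links integrin adhesions to the cytoskeleton in mammals, measured 6.76 and 6.88 in wild-type and 9.62 and 9.11 in 142ab-/- marrow, and 6.65 and 6.63 in wild-type and 7.09 and 6.67 in 142ab-/- myelomonocytes. Its 142ab-/- marrow arrays stood alone, and it rose there by 2.54 ± 0.19 (adjusted p = 0.000469), with a difference of differences of -2.31 ± 0.27 (adjusted p = 0.0268). The cordon-bleu-like gene cobll1b measured 6.16 and 6.22 in wild-type and 8.59 and 8.40 in 142ab-/- marrow, and 6.47 and 6.87 in wild-type and 7.06 and 6.68 in 142ab-/- myelomonocytes. It rose by 2.30 ± 0.17 in marrow (adjusted p = 0.000469) with a difference of differences of -2.10 ± 0.24 (adjusted p = 0.0268). Its paralogue cobll1a fell in marrow, from a mean of 9.37 to 7.81 (adjusted p = 0.0153), and its difference of differences of 1.44 ± 0.40 did not pass the test (adjusted p = 0.178). The gene bmf1, related to the BH3-only cell death gene BMF, rose by 0.85 ± 0.13 in marrow (adjusted p = 0.00918). Its myelomonocyte change was -0.46 ± 0.13 (adjusted p = 0.0638), so the marrow rise is only a part of the discrepancy. The difference of differences was -1.31 ± 0.19 (adjusted p = 0.0473), a call made in 3 of the 9 planned settings besides leaving out arrays.

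**Figure D3:**
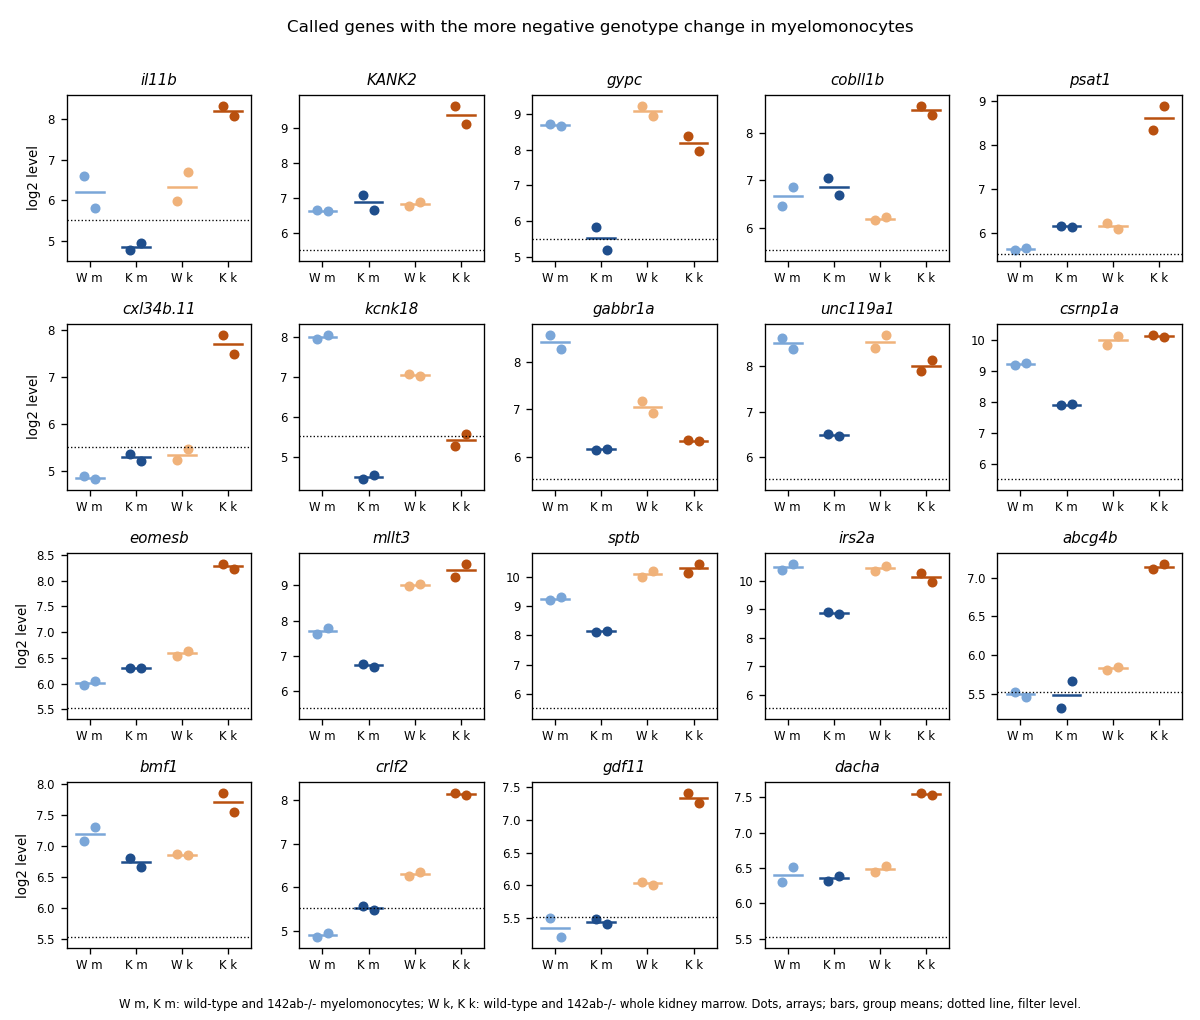
Log2 level on each array of the 19 named genes with the more negative genotype change in myelomonocytes, with groups, dots, bars and dotted line as for the genes with the more positive change. The 142ab-/- marrow arrays stand above all other arrays for KANK2, psat1, cxl34b.11 and eomesb, and the 142ab-/- myelomonocyte arrays stand below all other arrays for gypc, kcnk18, unc119a1 and irs2a.

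Falls that were larger in myelomonocytes were led in size by kcnk18, a potassium channel gene. It measured 7.96 and 8.06 in wild-type and 4.43 and 4.53 in 142ab-/- myelomonocytes, and 7.09 and 7.03 in wild-type and 5.28 and 5.57 in 142ab-/- marrow. Both 142ab-/- groups were below both wild-type groups and below the filter level as group means. Both falls may thus end at background, so their sizes and the difference between them are not measured exactly. It fell by 3.53 ± 0.12 in myelomonocytes and by 1.64 ± 0.12 in marrow (adjusted p = 8.14e-06 and 0.000447), with a difference of differences of -1.89 ± 0.17 (adjusted p = 0.0134). The GABA-B receptor subunit gene gabbr1a measured 8.58 and 8.28 in wild-type and 6.15 and 6.16 in 142ab-/- myelomonocytes, and 7.18 and 6.93 in wild-type and 6.35 and 6.32 in 142ab-/- marrow. Both 142ab-/- groups were again the lowest, and they lay close together. It fell by 2.27 ± 0.13 and by 0.72 ± 0.13 (adjusted p = 0.000109 and 0.0155), and the difference of differences was -1.56 ± 0.18 (adjusted p = 0.0270).

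The gene gypc, which encodes glycophorin C of the red cell membrane, measured 8.70 and 8.64 in wild-type and 5.85 and 5.20 in 142ab-/- myelomonocytes, and 9.22 and 8.93 in wild-type and 8.39 and 7.95 in 142ab-/- marrow. Its 142ab-/- myelomonocytes were below every other array, with a mean of 5.53 that lay at the filter level and may be near background. It fell by 3.14 ± 0.23 in myelomonocytes (adjusted p = 0.000302) and by 0.90 ± 0.23 in marrow (adjusted p = 0.0452), with a difference of differences of -2.24 ± 0.32 (adjusted p = 0.0472). A dimmer probe set of gypc, with a mean level of 5.67, changed by -0.14 in myelomonocytes and by 0.11 in marrow. The difference of differences of that probe set was -0.25. With the probe sets of gypc averaged the value was -1.25 and the call was lost. The call was also lost with the filter at the 65th percentile and after quantile normalization. The beta-spectrin gene sptb, of the membrane skeleton, measured 9.20 and 9.30 in wild-type and 8.11 and 8.16 in 142ab-/- myelomonocytes, and 9.98 and 10.18 in wild-type and 10.14 and 10.44 in 142ab-/- marrow. It fell by 1.12 ± 0.13 in myelomonocytes (adjusted p = 0.00214), its marrow change was 0.22 ± 0.13 (adjusted p = 0.344), and its difference of differences was -1.33 ± 0.18 (adjusted p = 0.0382). For mllt3, a chromatin reader that maintains blood stem cells in mammals, the myelomonocyte change was -0.96 ± 0.14 (adjusted p = 0.00454), the marrow change 0.42 ± 0.14 (adjusted p = 0.106) and the difference of differences -1.38 ± 0.19 (adjusted p = 0.0462). The erythroid list to which gypc and sptb belong is described further on, and the part of its other members in these values was not tested.

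The remaining 3 falls in myelomonocytes had little or no called change in marrow. The insulin receptor substrate gene irs2a measured 10.40 and 10.61 in wild-type and 8.90 and 8.85 in 142ab-/- myelomonocytes, and 10.34 and 10.54 in wild-type and 10.29 and 9.97 in 142ab-/- marrow. The 142ab-/- myelomonocytes alone were low. It fell by 1.63 ± 0.14 there (adjusted p = 0.000583), its marrow change was -0.31 ± 0.14 (adjusted p = 0.217), and the difference of differences was -1.33 ± 0.19 (adjusted p = 0.0491). It was called in 2 of the 9 planned settings besides leaving out arrays. For unc119a1, which encodes a chaperone of lipid-modified proteins, the values were -2.004 ± 0.15 in myelomonocytes (adjusted p = 0.000315), -0.53 ± 0.15 in marrow (adjusted p = 0.0631) and -1.48 ± 0.21 (adjusted p = 0.0439) for the difference. Its relatives unc119a2 and unc119b gave 0.10 and -0.09, neither of which passed the test. The nuclear protein gene csrnp1a measured 9.21 and 9.25 in wild-type and 7.90 and 7.95 in 142ab-/- myelomonocytes, and 9.85 and 10.11 in wild-type and 10.17 and 10.11 in 142ab-/- marrow. It fell by 1.30 ± 0.11 in myelomonocytes (adjusted p = 0.000583), with a difference of differences of -1.46 ± 0.16 (adjusted p = 0.0262). Its paralogue csrnp1b gave -1.05 ± 0.35, which did not pass the test (adjusted p = 0.241).

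The gene lists give the wider pattern, described by counts and medians beside the same over all genes. Over all genes the median difference of differences was 0.03, and 0.276% were called. Erythroid genes made up the list with the most negative median, -0.85. Of its 30 members 29 had a value below 0, 23 had an unadjusted p under 0.05 and a negative sign (7.35% of all genes), and gypc and sptb were called. In myelomonocytes the list had a median genotype change of -0.62, with 16 members called lower and 0 higher (5.51% and 6.85% of all genes), whereas in marrow the median was 0.17 and 1 member was called lower (4.55% of all genes). Its mean level was 9.48 and 9.55 on the wild-type and 8.91 and 8.90 on the 142ab-/- myelomonocyte arrays, and 10.21 and 10.32 on the wild-type and 10.31 and 10.54 on the 142ab-/- marrow arrays. The myelomonocyte groups did not overlap and the marrow ranges did. All 30 members on the array passed the filter on the mean over the 8 arrays, and the lowest array mean of the list, 8.90, was well above the filter level. When single arrays were left out, 23 to 25 members were negative at that unadjusted threshold.

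Members of the erythroid list with the next smallest p did not pass the test. The values were -0.92 ± 0.14 (adjusted p = 0.0540) for hemgn, a nuclear protein of red cell precursors, and -0.95 ± 0.15 (adjusted p = 0.0542) for slc4a1a, the anion exchanger of the red cell membrane. Cell cycle and DNA replication genes had a median of -0.51, and 43 of 44 were below 0. None was called, while 18 had an unadjusted p under 0.05, all negative (7.35% of all genes). Their mean level was 8.05 and 7.98 on wild-type and 7.64 and 7.67 on 142ab-/- myelomonocyte arrays, with 8.67 and 8.57 on wild-type and 8.55 and 8.91 on 142ab-/- marrow arrays. The 142ab-/- marrow arrays lay on either side of both wild-type ones, and the count of 18 became 28 without replicate 1 and 7 without replicate 2 of that group. It was also 10 without replicate 1 of wild-type myelomonocytes and 11 without replicate 2 of wild-type marrow. The smallest p among these genes belonged to aurkb, a mitotic kinase gene, at -0.93 ± 0.19 (adjusted p = 0.117).

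Kidney tubule and podocyte genes had the most positive median, 0.75, with 24 of 26 above 0. None was called, and 10 had an unadjusted p under 0.05, all positive (6.61% of all genes), a count that ran from 7 to 14 when single arrays were left out. The list had a median genotype change of 0.61 in myelomonocytes, where 9 were called higher (6.85% of all genes), and of -0.03 in marrow, where 0 were higher and 2 lower (4.73% and 4.55% of all genes, so the marrow counts are near those shares). Mean levels were 7.88 and 8.13 on wild-type and 8.52 and 8.74 on 142ab-/- myelomonocyte arrays, compared with 7.69 and 7.83 on wild-type and 7.49 and 7.83 on 142ab-/- marrow arrays. The 142ab-/- myelomonocytes were thus the highest group. In wild type 2 of 26 members were called higher in myelomonocytes than in marrow, and in 142ab-/- 20 were (of all genes 15.5% were called higher there in wild type and 21.5% in 142ab-/-). The water channel gene aqp3a had the smallest p of the list at 2.30 ± 0.34 (adjusted p = 0.0505), followed by the glucose transporter gene slc5a2 at 1.82 ± 0.32 (adjusted p = 0.0820). Whether kidney cell RNA takes part in the population-dependent values of other genes was not tested.

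**Figure D4:**
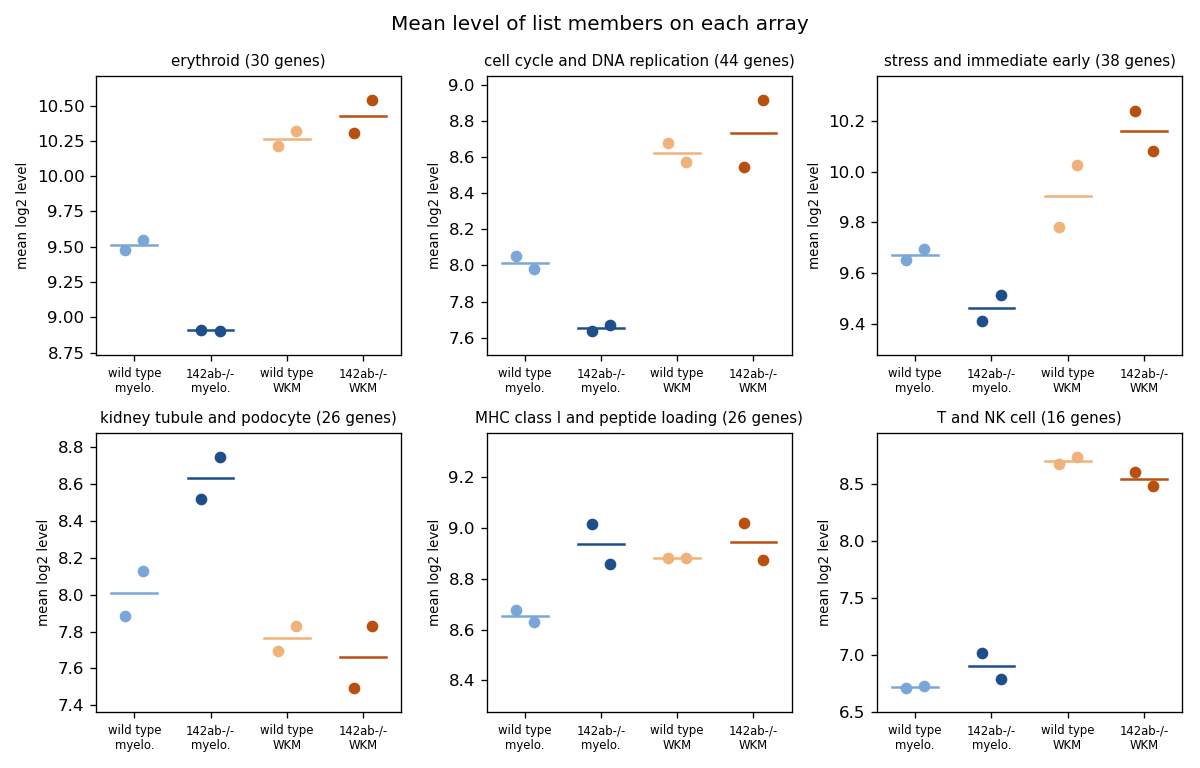
Mean log2 level of the members of 6 gene lists on each of the 8 arrays, by group (dots, arrays; lines, group means; WKM, whole kidney marrow; vertical axes do not start at 0). Erythroid and cell cycle genes are lowest on the 142ab-/- myelomonocyte arrays, and kidney genes are highest there.

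Stress and immediate early genes had a median of -0.31, and inflammatory cytokines and chemokines one of -0.34. None of 38 stress genes was called and 13 had an unadjusted p under 0.05, all negative (7.35% of all genes), from 9 to 17 without single arrays. Their genotype change was called higher for 4 in marrow (4.73% of all genes). Mean levels of the stress genes on the marrow arrays were 9.78 and 10.03 in wild type and 10.24 and 10.08 in 142ab-/-, and on the myelomonocyte arrays 9.65 and 9.70 in wild type and 9.41 and 9.51 in 142ab-/-. The heat shock gene hspb1 gave -1.37 ± 0.27 (adjusted p = 0.104). Of 31 inflammatory genes il11b and cxl34b.11 were called, 9 had an unadjusted p under 0.05 with a negative sign and 2 with a positive sign (7.35% and 6.61% of all genes). The granulocyte growth factor gene csf3b gave -1.26 ± 0.28 (adjusted p = 0.137).

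MHC class I and peptide loading genes had 8 of 26 members with an unadjusted p under 0.05, all positive (6.61% of all genes), none called, and a median of 0.15. In myelomonocytes 8 of the 26 were called higher in 142ab-/- (6.85% of all genes), and in marrow 2 were higher and 1 lower, near the 4.73% and 4.55% of all genes. Their mean level was 8.68 and 8.63 on wild-type and 9.02 and 8.86 on 142ab-/- myelomonocyte arrays, with 8.88 on both wild-type and 9.02 and 8.87 on 142ab-/- marrow arrays. The count of 8 became 4 without replicate 1 of 142ab-/- myelomonocytes or replicate 2 of 142ab-/- marrow, and 12 without replicate 2 of 142ab-/- myelomonocytes. The tapasin-related gene tapbpl gave 0.73 ± 0.16 (adjusted p = 0.137). In the related lists the called members were socs1b alone of 27 interferon gamma and JAK-STAT genes, parp9 alone of 22 interferon-stimulated antiviral genes, and none of 13 MHC class II genes. Their medians were 0.11, 0.12 and 0.03. In the same order 4, 4 and 1 members were positive, and 2, 2 and 1 negative, at an unadjusted p under 0.05. Over all genes 6.61% were positive and 7.35% negative at that threshold, and 0.276% were called. The negative counts, and the 1 positive MHC class II member, are near those shares. Near-identical copies of MHC genes may share probes, which makes their values uncertain.

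The counts in the lists that follow are at an unadjusted p under 0.05, to be read against 6.61% of all genes positive and 7.35% negative. Unless stated, they moved by at most 3 members when single arrays were left out. Among lymphoid lists, T and NK cell markers had 6 of 16 members positive and 1 negative, with foxp3a called and a median of 0.25. The T cell kinase gene lck gave 1.62 ± 0.29 (adjusted p = 0.0838) and the signalling adaptor gene sh2d1ab 0.93 ± 0.16 (adjusted p = 0.0820). B cell markers had 3 of 14 positive and 1 negative, with cd22 called and a median of 0.26, and the recombinase gene rag2 gave 1.33 ± 0.24 (adjusted p = 0.0899). The 3 positive B cell markers became 6 without replicate 1 and 2 without replicate 2 of 142ab-/- marrow. The myeloid lists had no called member: neutrophil markers had 1 of 18 positive and 2 negative with a median of 0.02, and monocyte and macrophage markers 1 of 23 positive and 3 negative with a median of -0.05. The latter's 3 negative members became 0 to 7 when single arrays were left out. Eosinophil and mast cell markers had 1 of 7 positive, thrombocyte markers 1 of 13 positive and 2 negative, and stem and progenitor markers 2 of 18 positive and 3 negative, with mllt3 called. The thrombocyte and erythroid regulator gfi1b gave -1.26 ± 0.20 (adjusted p = 0.0614). Of the non-blood lists, 0 of 21 endothelial genes had an unadjusted p under 0.05, although 9 were negative without replicate 1 of 142ab-/- myelomonocytes, and 1 of 17 stromal genes was positive and 2 negative, the latter 6 without that same array.

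**Figure D5:**
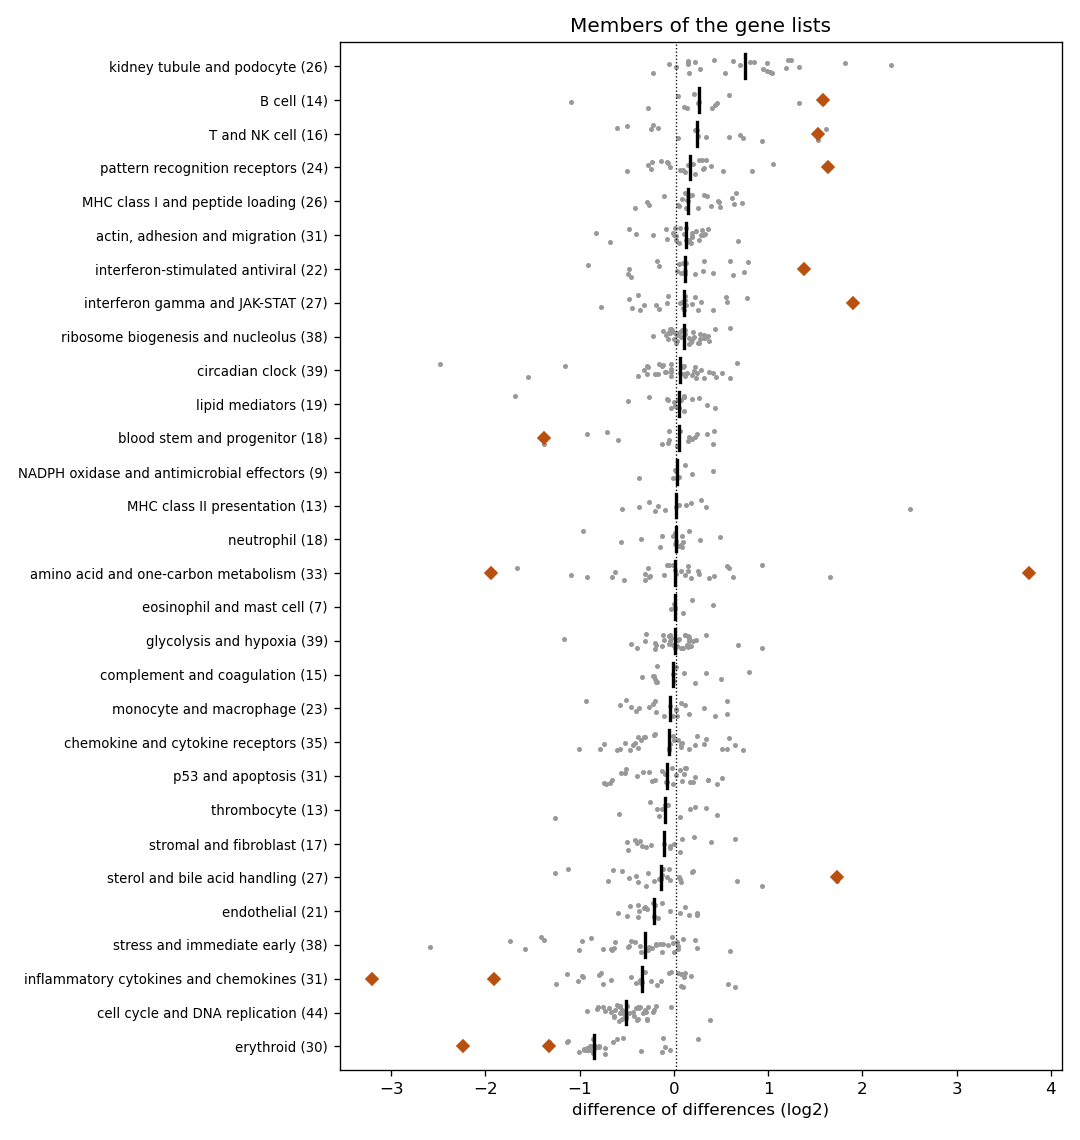
Difference of differences (log2) of every tested member of 30 gene lists, ordered by the list median. Dots are genes that did not pass the test, diamonds are called genes, black bars are list medians, the dotted line is the median of all genes (0.03), and numbers in parentheses are genes tested. Kidney genes lie mostly to the right of the dotted line and erythroid and cell cycle genes mostly to the left.

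Of the metabolic and clock genes, 3 were called. Amino acid and one-carbon genes had a median of 0.01, with hpdb and psat1 called in opposite directions and 6 of 33 members positive and 7 negative at an unadjusted p under 0.05. The pteridine enzyme gene gch2 gave 1.66 ± 0.29 (adjusted p = 0.0828). Sterol and bile acid genes had slco1f1 called, 2 of 27 positive and 4 negative, and a median of -0.13. Glycolysis and hypoxia genes had 2 of 39 positive and 2 negative with a median of 0.01. Circadian clock genes had 5 of 39 positive and 3 negative with a median of 0.06, and the deadenylase gene noctb, a clock output, gave -2.49 ± 0.54 (adjusted p = 0.130).

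The remaining lists had medians from -0.07 to 0.17. Pattern recognition receptors had 5 of 24 positive and 0 negative with a median of 0.17, and tlr21 was the called member. Chemokine and cytokine receptors had 4 of 35 positive and 8 negative and a median of -0.05, and the 8 became 3 without replicate 1 of wild-type marrow or replicate 1 of 142ab-/- marrow. Genes of p53 signalling and apoptosis had 1 of 31 positive and 6 negative and a median of -0.07. Lipid mediator genes had 1 of 19 positive and 2 negative, complement and coagulation genes 2 of 15 positive, NADPH oxidase and antimicrobial genes 1 of 9 positive, actin, adhesion and migration genes 2 of 31 positive and 2 negative, and ribosome biogenesis genes 2 of 38 positive. Ribosome biogenesis genes were called lower in myelomonocytes than in marrow for 36 of 38 in wild type (2766 of all 13774 genes were). None of them was called for the difference of differences, which is near the 0.276% of all genes called.

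A group mean below the filter level was found for 10 of the 38 called genes. Of the 38, 37 could be placed through the gene annotation, on 19 chromosomes. A single pair lay within 10 genes of each other, gypc and parp9, which were 4 places apart and had opposite signs. The same counts over all genes are not given here, so these are a description only.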

How the data were processed

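Affymetrix whole-transcript arrays measured total RNA of the 8 samples. The deposited table holds log2 values of 75212 probe sets, a scale read from their range of 1.63 to 13.76. The authors' way of normalizing them was not given in the sources used here, and scan dates were not used. Probe sets with 1 symbol in the platform annotation were kept (20806), the brightest per symbol, where the mean over the arrays reached 5.52, the 50th percentile of all probe sets. The RefSeq gene table of assembly GRCz12tu matched 20323 of them and was used for names and gene order only. With limma 3.58.1 in R 4.3.3, 4 group means were fitted over all arrays, with 4 residual and 4.00 prior degrees of freedom. Two-sided p-values received a Benjamini-Hochberg adjustment across the 13774 genes tested, and genes were called at an adjusted p under 0.05. The script was tested on simulated data. Errors are standard errors. The members and the 30 lists were chosen with earlier results of these data known. Named genes were up to 15 per direction by size among those called, up to 8 with opposite genotype changes, and up to 3 per list by smallest p. The genes bmf1, crlf2, gdf11 and dacha, and the named paralogues, fall outside that rule and were chosen after their values were seen. The alternatives were other filters, probe set rules, normalizations, weights and variance priors, the replicate number as a block (also within each genotype, added after seeing the data), and leaving out each array.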

Additional observations from a re-analysis of the deposited data

Results flagged for a closer look

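The following 33 named genes are listed for a closer look because limma's test of the difference between the genotype changes of the populations passed an adjusted p of 0.05. Each value is the change in myelomonocytes minus the change in whole kidney marrow, on the log2 scale, in 2 arrays per group. Among positive values were hpdb at 3.77, socs1b at 1.90, slco1f1 at 1.73, tlr21 at 1.64, cd22 at 1.59, foxp3a at 1.53, anxa1a at 1.43, moxd1 at 1.42, rdh8a at 1.39, parp9 at 1.39, prdm8b at 1.098, lratd1 at 1.09, ywhah at 1.02 and bcam at 0.95. Among negative values were il11b at -3.20, KANK2 at -2.31, gypc at -2.24, cobll1b at -2.10, psat1 at -1.94, cxl34b.11 at -1.91, kcnk18 at -1.89, gabbr1a at -1.56, unc119a1 at -1.48, csrnp1a at -1.46, eomesb at -1.41, mllt3 at -1.38, sptb at -1.33, irs2a at -1.33, abcg4b at -1.32, bmf1 at -1.31, crlf2 at -1.23, gdf11 at -1.21 and dacha at -1.11. No group had enough arrays for a test of single outlying arrays.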

How the results depend on the processing

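The genotype effect that depends on cell population was called for 38 genes. The count was 22 with the filter at the 65th percentile (10576 genes tested), 24 after quantile normalization, 94 with an intensity trend in the variance prior (33 positive and 61 negative) and 77 with the replicate block. At 2-fold or more the counts were 37 in the reported fit, 21, 22, 74 and 71 in the same order. Leaving out single arrays gave 1 to 25 calls, also 1 to 25 at 2-fold or more, where the remaining array of a group is assumed to vary like the other groups. The other settings gave 31 to 40 calls. Of the 38 genes, 22, 23, 38 and 37 were called under those first settings. The replicate numbers were not taken to pair the samples across all groups, because correlations of same-numbered deviations ran from 0 to 0.405 and not every pair exceeded 0.1. The pairs of groups under 0.1 were all between genotypes. Between the populations of the same genotype the correlations were 0.405 in wild type and 0.267 in 142ab-/-. Both exceeded 0.1, so this rule does not decide whether the populations of a genotype were paired. A replicate block within each genotype, chosen after seeing the data, gave 254 calls, 161 at 2-fold or more, with all 38 genes among them. Among the 33 named genes hpdb was called wherever it was tested, and it did not pass the stricter filter. The highest adjusted p of each of the other genes over the settings ran from 0.0998 to 0.205, and 17 genes kept the call in no repeat that left out an array. The repeats that left out an array kept the gene filter set on all 8 arrays. After quantile normalization cd22, rdh8a, lratd1, sptb, dacha, mllt3 and unc119a1 also lost their calls, besides genes whose lost settings are given above. The calls of mllt3 and unc119a1 were lost with array weights too, and that of moxd1 after median centring. No named gene reversed sign. The median of all genes was 0.03, and -0.01 after quantile normalization. The cause of these shifts was not tested.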
